A study of Mus musculus with 6 samples.

Results

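In E14 mouse embryonic stem cells 131410 merged regions of open chromatin were found. Of these, 24749 were listed at every one of 3 stages, had a midpoint away from gene ends and kept a similar width. They are called stable-width distal regions here. They were chosen in these steps. Intervals of the deposited 2iL, 48 h and 96 h peak lists were merged where they overlapped by at least 1 bp. Of the merged regions, 47176 had an interval in all 3 lists, and 30261 of these had their midpoint over 1 kb and up to 100 kb from the nearest end of a protein-coding gene. The width of a region in a list is the summed width of its intervals there. In 24749 of the 30261 regions (81.8%) the 96 h width was over 0.6 and under 1.6 times the 2iL width, and these are the members. A further 2385 regions had a ratio of 0.6 or less and are called narrowing, and 3127 had a ratio of 1.6 or more and are called widening. Presence in the lists, the ratio of 96 h to 2iL width and the distance to a gene end chose the members, so these values are given as descriptions only.

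Chromatin was assayed by ATAC-seq, in which a transposase cuts and tags accessible DNA. E14 is an established mouse embryonic stem cell line. The 2iL cells were kept with LIF and with inhibitors of GSK3 (CHIR99021) and of MEK (PD0325901), and the other groups were collected 48 h and 96 h after a change to N2B27 medium without 2iL. Each group held 2 samples, A and B, with 100000 live cells per sample taken for nuclei. The labels name the same peak list for both samples of a group and do not say whether A and B were separate cultures. There is therefore 1 value per group, no spread between replicates and no test between groups, and the depth behind each list is not known. Every 95% interval given for a share is an exact Clopper-Pearson interval, covers counting error only and treats neighbouring regions as independent.

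Open regions far from gene ends include enhancers, sites bound by the insulator protein CTCF, and promoters of transcripts that start within or between genes. Cells in 2iL are in the naive state of pluripotency, and after its withdrawal they pass through a formative state toward differentiation. In these steps many enhancers are closed and others opened, whereas promoters rich in CpG, the dinucleotide on which mammalian DNA is methylated, are commonly open in many cell types.

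The sequences that bear on the members are those of annotated starts inside them, since 2219 of 24020 members held a RefSeq transcript start. Windows of 300 bases, 250 before the start and 50 from it on, were taken from RefSeq (GRCm38.p6, the assembly of mm10) in the direction of transcription. Capitals mark CpG. The first 6 are from members and the last 2 from the regions with a start that ranked highest by fold in the narrowing and widening classes. 9330159M07Rik is a long non-coding RNA (minus strand, chr9:88858821-88859120). 6720489N17Rik is a protein-coding gene (minus strand, chr13:62624133-62624432). Wapl releases cohesin from DNA (plus strand, chr14:34673678-34673977). Lifr is the LIF receptor (plus strand, chr15:7129322-7129621). Esrrb is a transcription factor of naive pluripotency (plus strand, chr12:86421394-86421693). Dnmt3a is a de novo DNA methyltransferase (plus strand, chr12:3891494-3891793). Ccdc77 is from a narrowing region (minus strand, chr6:120357420-120357719) and Gm34267 from a widening one (minus strand, chr10:22058605-22058904).
9330159M07Rik: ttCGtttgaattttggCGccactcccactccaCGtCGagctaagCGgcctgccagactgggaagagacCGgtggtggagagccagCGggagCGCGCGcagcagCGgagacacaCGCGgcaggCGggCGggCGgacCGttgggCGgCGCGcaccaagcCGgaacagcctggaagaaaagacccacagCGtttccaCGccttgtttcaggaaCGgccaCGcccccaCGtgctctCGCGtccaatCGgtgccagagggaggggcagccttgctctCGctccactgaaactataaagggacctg
6720489N17Rik: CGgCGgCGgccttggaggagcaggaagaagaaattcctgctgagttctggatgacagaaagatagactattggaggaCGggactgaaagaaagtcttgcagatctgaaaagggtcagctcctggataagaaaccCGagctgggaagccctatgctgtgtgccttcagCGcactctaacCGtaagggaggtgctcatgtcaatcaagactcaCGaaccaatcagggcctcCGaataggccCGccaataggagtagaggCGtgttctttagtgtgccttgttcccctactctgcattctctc
Wapl: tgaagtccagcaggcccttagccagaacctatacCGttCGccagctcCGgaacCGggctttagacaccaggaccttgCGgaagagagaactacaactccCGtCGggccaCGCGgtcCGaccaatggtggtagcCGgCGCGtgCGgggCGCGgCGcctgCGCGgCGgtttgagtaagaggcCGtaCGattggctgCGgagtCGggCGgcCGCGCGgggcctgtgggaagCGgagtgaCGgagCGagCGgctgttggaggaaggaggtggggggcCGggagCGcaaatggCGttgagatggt
Lifr: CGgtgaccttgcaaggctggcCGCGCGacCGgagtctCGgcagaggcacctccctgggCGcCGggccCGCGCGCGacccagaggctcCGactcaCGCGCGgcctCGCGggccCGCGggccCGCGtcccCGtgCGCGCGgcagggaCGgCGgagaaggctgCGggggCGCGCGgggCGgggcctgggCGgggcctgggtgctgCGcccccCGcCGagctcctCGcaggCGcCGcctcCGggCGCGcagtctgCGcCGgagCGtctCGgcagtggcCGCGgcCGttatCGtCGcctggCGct
Esrrb: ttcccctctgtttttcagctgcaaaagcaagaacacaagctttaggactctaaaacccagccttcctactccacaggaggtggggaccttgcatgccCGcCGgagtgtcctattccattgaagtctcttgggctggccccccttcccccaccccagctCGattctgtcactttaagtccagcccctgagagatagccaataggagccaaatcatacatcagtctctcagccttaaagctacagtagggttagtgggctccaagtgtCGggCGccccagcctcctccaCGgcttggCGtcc
Dnmt3a: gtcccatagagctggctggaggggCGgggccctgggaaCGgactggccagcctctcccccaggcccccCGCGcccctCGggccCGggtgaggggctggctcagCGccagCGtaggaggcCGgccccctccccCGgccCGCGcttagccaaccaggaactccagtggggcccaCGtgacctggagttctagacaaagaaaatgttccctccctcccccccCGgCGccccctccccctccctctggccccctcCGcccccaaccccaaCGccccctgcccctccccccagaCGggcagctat
Ccdc77: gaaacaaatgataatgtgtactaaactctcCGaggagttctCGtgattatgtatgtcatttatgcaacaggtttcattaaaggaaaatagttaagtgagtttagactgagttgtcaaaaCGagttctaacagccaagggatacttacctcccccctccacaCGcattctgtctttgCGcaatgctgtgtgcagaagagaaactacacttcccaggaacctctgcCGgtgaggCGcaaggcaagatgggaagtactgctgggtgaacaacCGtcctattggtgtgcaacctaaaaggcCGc
Gm34267: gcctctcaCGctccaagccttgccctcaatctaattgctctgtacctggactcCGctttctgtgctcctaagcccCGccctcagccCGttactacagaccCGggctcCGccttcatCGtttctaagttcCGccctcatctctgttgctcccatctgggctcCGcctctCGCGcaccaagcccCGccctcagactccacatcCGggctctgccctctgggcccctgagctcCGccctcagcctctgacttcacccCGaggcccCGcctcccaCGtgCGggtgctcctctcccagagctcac
These windows held 30, 11, 35, 53, 7 and 18 CpG in the 6 members, in the order printed, 9 in the narrowing region and 18 in the widening one. The Lifr window was 81.3% G and C and the Esrrb window 55.3%, so members ranged from CpG-dense to CpG-poor starts.

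Mature microRNAs encoded inside members are the other sequences shown, because hairpins that share a target-recognition seed lay in different members or together in 1. Of 1005 mouse hairpins with a position in the RefSeq table, 61 lay wholly in 52 members, 5 in narrowing and 5 in widening regions. These were 0.217%, 0.216% and 0.164% of the regions of each class, so the counts followed the sizes of the classes. The sequence tables used here had no entry on 1 autosome, and regions there are left out of counts that use them. Capitals mark the seed, bases 2 to 8.
miR-106b-5p: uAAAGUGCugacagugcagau
miR-93-5p: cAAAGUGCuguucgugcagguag
miR-132-3p: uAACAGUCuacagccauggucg
miR-212-3p: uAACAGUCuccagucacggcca
miR-34b-5p: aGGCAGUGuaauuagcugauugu
miR-449c-5p: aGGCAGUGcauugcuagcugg
miR-9-5p: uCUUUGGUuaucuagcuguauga
miR-302b-3p: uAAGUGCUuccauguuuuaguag
The hairpins of miR-106b and miR-93 share the seed AAAGUGC and lay with that of miR-25 in 1 member within Mcm7, a subunit of the replicative helicase (chr5:138165153-138166141). That member was 959 bp wide in 2iL, 968 bp at 48 h and 948 bp at 96 h. By fold over background it ranked low in every list, at percentiles 4.95, 16.2 and 20.1. The hairpins of miR-132 and miR-212, with the seed AACAGUC, shared a member near Ovca2 of 1000, 1267 and 1243 bp. miR-34b-5p and miR-449c-5p have the seed GGCAGUG and lay in members near Btg4 (chr9) and Cdc20b (chr13). The same mature miR-9-5p, a regulator of neural progenitors with the seed CUUUGGU, came from hairpins in 2 members, Mir9-1 on chr3 and Mir9-3 on chr7. Of RefSeq microRNA genes with these seeds, 2 of 7 with AAAGUGC and 2 of 2 with AACAGUC lay in members. For GGCAGUG it was 2 of 4 and for CUUUGGU 2 of 3.

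The member with Mir302b, from a microRNA cluster known in primed pluripotent cells, was 720, 625 and 586 bp wide in 2iL, at 48 h and at 96 h, at chr3:127544616-127545335. Its fold over background, the authors' value at the strongest summit, was 12.9 in the 2iL list, 12.5 in the 48 h list and 7.17 in the 96 h list. The member with Mir200c, of a family tied to epithelial identity, was 871, 1416 and 1158 bp wide, and its strongest summit lay 370 bp apart between the 2iL and 96 h lists. Fold is used here to describe and rank regions within 1 list, so no change between lists is read from it.

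The members kept their width at 48 h, a list whose width the choice did not use. Their median width was 700 bp in 2iL (middle 50% from 491 to 950), 719 bp at 48 h (518 to 974) and 697 bp at 96 h (500 to 928). The ratio of 48 h to 2iL width had a median of 1.02 (0.952 to 1.14). It was within the limits of 0.6 and 1.6 in 23384 of 24749 members, 94.5% (94.2% to 94.8%), against 86.3% over all persistent distal regions. The share was 72.2% (70.4% to 74.0%) in narrowing and 32.7% (31.1% to 34.4%) in widening regions. The ratios at 48 h and 96 h share the 2iL width, so the order of the classes is a description. In 13210 regions present in all 3 lists with a midpoint within 1 kb of a gene end, not selected on width, the share was 95.5% (95.2% to 95.9%).

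**Figure D1:**
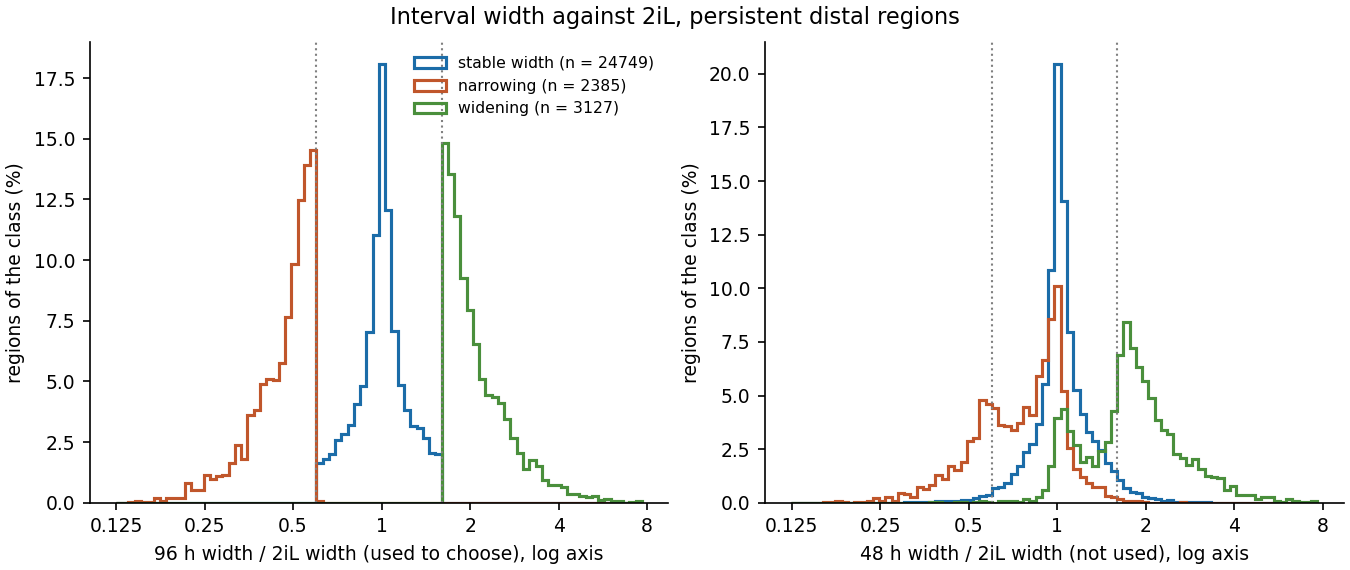
Ratio of interval width to that in 2iL (log axis) against the share of regions in each class, at 96 h on the left and at 48 h on the right, with dotted lines at 0.6 and 1.6. The left panel shows the limits that defined the classes. On the right 94.5% of the stable-width regions lie between the lines, against 72.2% of the narrowing and 32.7% of the widening regions.

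A minority of members left the width limits at 48 h. At 48 h, 948 members (3.83%) were 1.6 times as wide as in 2iL or wider, with median widths of 398.5, 766 and 466.5 bp in the 3 lists. Another 417 (1.68%) were at 0.6 times or less, with medians of 768, 379 and 664 bp. A region 43.6 kb from Lratd1 (chr12:14195204-14195982) was 378, 779 and 428 bp wide, with folds of 12.2, 26.9 and 5.80 in the 3 lists. A region within Synpo2, which encodes an actin-binding protein, was 343, 559 and 369 bp wide.

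The reverse pattern was seen 67.4 kb from Gfra2, a receptor for a neurotrophic factor (chr14:71046831-71047682). This member was 852 bp wide in 2iL, 410 bp at 48 h and 749 bp at 96 h, and its fold was 24.5, 5.996 and 21.3. It ranked in the 99.4th, 29.3rd and 95.8th percentile of the 3 lists by fold. Members within Cd44, an adhesion receptor, at 926, 549 and 572 bp, and within Kif26b, a kinesin family member, at 1110, 529 and 887 bp, were also narrowest at 48 h. Among members outside the limits at 48 h, these examples are near the top by fold in the list where each was wide, with others passed over. The 2 samples pooled in each list give no spread against which to judge them.

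The choice by width was not made at a gap in the values. Members with a ratio of 96 h to 2iL width over 0.6 and up to 0.65 numbered 693, and 599 regions just outside had a ratio over 0.55 and up to 0.6. At the upper limit 310 members had a ratio within 0.05 under it, and 288 regions outside had one at it or over it by less than 0.05. In 12287 members (49.6%) the ratio was over 0.9 and up to 1.1. A member just inside the lower limit lay in Krtcap2, with 573 bp in 2iL and 344 bp at 96 h. A region just outside, in Hdac1, a histone deacetylase, had 805 and 483 bp. The member nearest the upper limit, in Cit, was 647 and 1035 bp wide, and a region just outside, in the transcription factor gene Tfap2b, was 380 and 608 bp. By distance, members lay from 1.0005 kb, at Arl5c among others, to 99.978 kb from an end, at Tafa5. Regions just outside lay 0.999 kb from an end of Klhl23 and 100.019 kb from one of Asb7. These distances are from the midpoint. By their edges, 35 members covered a protein-coding gene end and 1193 (4.82%) had one within 1 kb of an edge.

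The strongest summit was displaced by a like median distance in each class of persistent region. The summit, the position of highest signal in an interval, was not used to choose members. Between 2iL and 96 h it was displaced by a median of 11 bp (middle 50% from 5 to 26), and by up to 50 bp in 84.6% (84.1% to 85.0%) of members, against 84.9% of all persistent distal regions. Between 2iL and 48 h the median was 10 bp, and between 48 h and 96 h it was 8 bp. The 2iL to 96 h median was 12 bp in narrowing and 9 bp in widening regions, so the medians of the 3 classes lay within 3 bp of each other.

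**Figure D2:**
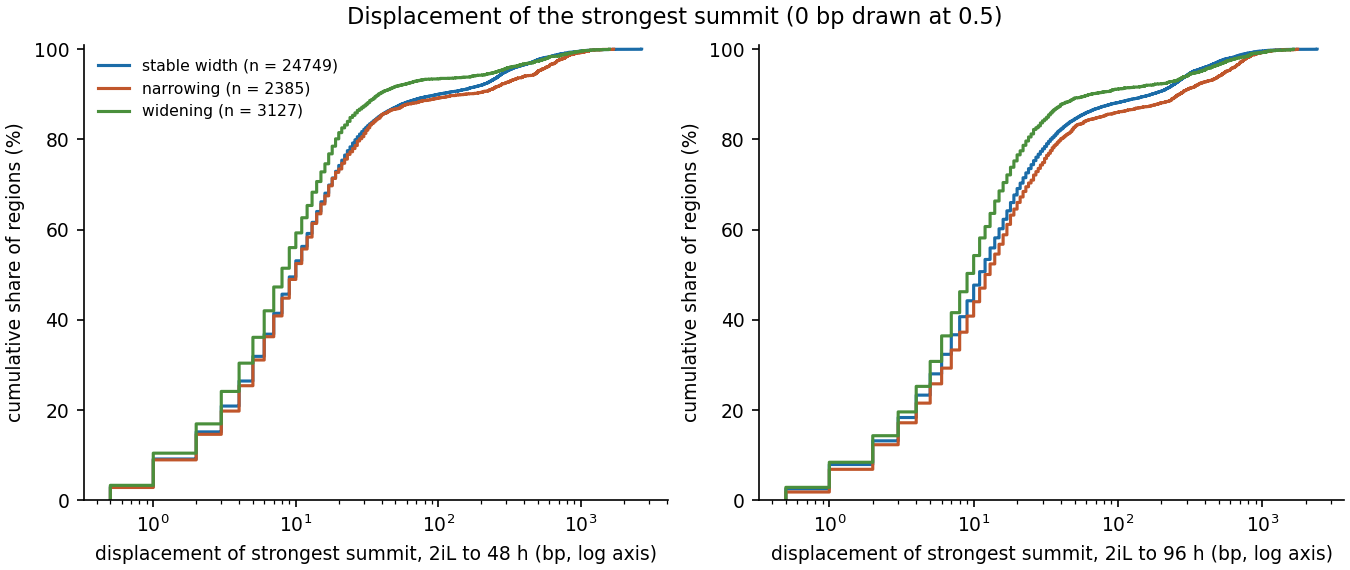
Cumulative share of regions against the displacement of the strongest summit (bp, log axis), from 2iL to 48 h on the left and from 2iL to 96 h on the right, for the 3 width classes. The curves of all 3 classes pass 50% at about 10 bp, with medians from 2iL to 96 h of 11 bp for stable-width, 12 bp for narrowing and 9 bp for widening regions.

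In 2594 members (10.5%) the strongest summit was displaced by over 150 bp from 2iL to 96 h, against 10.4% of all persistent distal regions. The farthest was in Crebbp, a histone acetyltransferase (chr16:4084051-4086912), with 2399 bp. This region held 3, 3 and 2 summits in the 3 lists and was 1052, 1792 and 812 bp wide. The next were in Urgcp and Zfhx2, with 1900 bp each, in Ly6h with 1866 bp, and 33.2 kb from Scrt2 with 1689 bp. Each of these 5 regions held at least 2 summits in every list, so a different summit of the same region was the strongest. In a region of several summits the displacement is between summits and does not measure a shift of 1 site.

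The number of summits differed between the classes, as their widths did by choice. It was the same in all 3 lists in 10956 members, 44.3% (43.6% to 44.9%), in 38.5% of all persistent distal regions, in 15.7% of narrowing and in 10.4% of widening regions. A single summit was listed in 34.2%, 31.9% and 29.96% of members in 2iL, at 48 h and at 96 h. Narrowing regions had 1 summit in 16.6%, 35.8% and 68.5%, and widening ones in 80.3%, 33.6% and 11.8%. Wider intervals hold more summits, and width chose the classes. In 23878 members (96.5%) each list held 1 interval.

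Members had median folds above the middle of each list. Their median fold was 9.78 in the 2iL list (percentile 61.7 of all intervals), 10.4 at 48 h (65.9) and 10.3 at 96 h (60.1). Median percentiles were 59.0, 64.1 and 58.0 over all persistent distal regions. They were 76.5, 76.8 and 76.5 in persistent regions at gene ends, so this trait was not particular to members. Narrowing regions had median folds of 9.94, 8.77 and 6.36, and widening ones of 6.91, 9.11 and 10.6. Within the 2iL list members and narrowing regions thus had like medians, and within the 96 h list members and widening regions did. Fold was not used to choose the classes, but width in the same lists was. Of the members, 4771 (19.3%) were in the top 25% of intervals by fold in all 3 lists and 1565 (6.32%) in the lowest 25% in all 3. Over all persistent distal regions, of which members are the larger share, these shares were 16.7% and 6.47%.

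**Figure D3:**
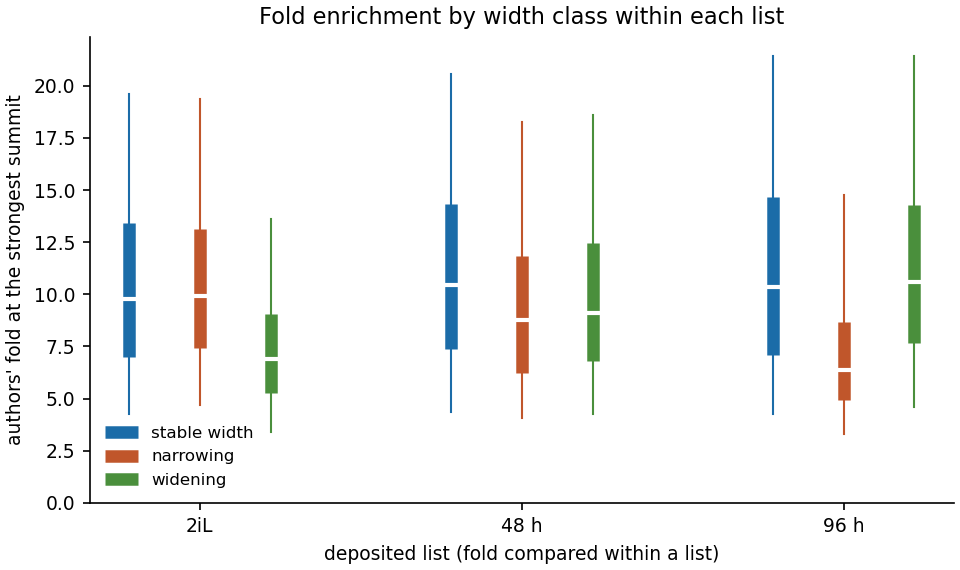
The authors' fold at the strongest summit for the 3 width classes within each list, with thick bars for the middle 50%, thin lines from the 5th to the 95th percentile and white marks at medians. Stable-width regions have medians of 9.78, 10.4 and 10.3 in the 2iL, 48 h and 96 h lists. Folds are comparable within a list only.

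By the lowest of their 3 percentiles, the strongest member was 49.2 kb from St6galnac3, a sialyltransferase gene (chr3:153148822-153149292). It was 437, 466 and 466 bp wide, had 1 summit in every list, and its folds were 30.7, 36.0 and 37.0. A region within Atm, which encodes a kinase of the DNA damage response (chr9:53507988-53508703), was 710, 701 and 697 bp wide with folds of 29.9, 30.8 and 34.3. The strongest region near Crhr1, a receptor of the stress hormone axis, was 580, 632 and 632 bp wide. Others of the first 10 lay near 4930467E23Rik, 1810024B03Rik, Slc4a3, Trim72 and Btbd10, and the last 2 held the 6720489N17Rik and 9330159M07Rik starts printed above. In these 10 regions the strongest summit was displaced by 0 to 11 bp from 2iL to 96 h. The Btbd10 region was the narrowest relative to 2iL, at 744, 599 and 569 bp.

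Members were more frequent among distal regions close to genes. They made up 25.7% of all 96215 distal regions, whether or not these were in all 3 lists. The share was 32.2% (31.5% to 32.8%) at 1 to 5 kb from the nearest gene end, 26.4% (25.9% to 26.8%) at 5 to 20 kb, 23.2% (22.7% to 23.7%) at 20 to 50 kb and 20.3% (19.7% to 21.0%) at 50 to 100 kb. The share in all 3 lists fell over the same bins, from 38.4% to 25.5%, whereas members were 83.7%, 81.7%, 80.9% and 79.8% of the regions in all 3 lists. The share of members thus varied less over distance once presence in all 3 lists was given. The midpoint lay inside a protein-coding gene in 13914 members, 56.2% (55.6% to 56.8%), in 55.9% of narrowing and in 53.3% of widening regions. The gene table lists no exons, so whether such a member was exonic or intronic is not known. By chromosome the share of distal regions ranged from 23.7% on chromosome 1 to 28.8% on chromosome 19, with 24.3% on X and 7 of 24 regions on Y.

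Each member was assigned to the gene with the nearest end, which it need not act on. Members fell to 10823 of 16251 genes with a distal region, 4982 of them with 1 member and 92 with 10 or more. Cacna1a, the pore subunit of a neuronal calcium channel (chr8:84338631-84640251), had the most, 23 of 43 distal regions. Abr, a regulator of small GTPases, followed with 17 of 37 and Nav1, a microtubule-associated protein of neurons, with 16 of 35. Then came 15 members each at Igsf21, Plekha7, Sertad2, Zfp423 and Zmynd8, the last a reader of chromatin marks. Akap7, with 14 of 29, had no narrowing or widening region, and all 14 of its persistent distal regions were members. Bcor, a Polycomb corepressor on X, also had 14 members of 41, beside 6 narrowing regions and 0 widening ones. Epb41l1 and Ctif had 14 each, and 15 genes in all had that number.

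Some genes had nearly all and others none of their distal regions among the members. Of 4183 genes with at least 8 distal regions, the highest share was at Notch3, a Notch receptor, with 8 of 9. Ptp4a3, a phosphatase, and Spr, an enzyme of tetrahydrobiopterin synthesis, had 8 of 10 each, and Ltbp4, which binds latent TGF-beta, had 11 of 14. Among 199 such genes with 0 members, Ctnnbl1 had the most distal regions, 30, of which 1 was in all 3 lists and widened. Bnc2 and Lrch1 had 0 of 22, and Xylt1 0 of 18. Counts of this size leave wide intervals for a single gene.

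The spacing of members was like that of the other persistent regions. The median distance between neighbouring members was 27.0 kb (middle 50% from 10.6 to 69.2 kb), and 9914 members (40.1%) lay within 10 kb of another, in 4085 runs. A member other than itself lay within 10 kb of 40.4% of narrowing, 39.8% of widening and 40.1% of all persistent distal regions, and of 35.7% of distal regions missing from at least 1 list. The longest run by count held 10 members in 36.4 kb at the end of Cacna1a and around Ier2, an immediate early gene (chr8:84629433-84665827), among 14 regions of which 1 widened and none narrowed. A run of 9 members in 37.3 kb lay over Malat1, an abundant nuclear long non-coding RNA (chr19:5786462-5823808), where all 9 persistent regions were members. Their folds ranged from 2.41 to 10.3 in the 2iL list, from 3.54 to 13.7 at 48 h and from 2.39 to 13.7 at 96 h. Runs of 9 also lay at Smug1, a DNA repair glycosylase, at Sema4a and Lmna, the gene of lamin A and C, and within Ryr1, a calcium release channel. Regions in such a run share a neighbourhood and are not independent of each other.

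Members lay at genes of every cell state in 14 gene lists, at shares near the 25.7% over all genes. The share of distal regions that were members ranged from 19.7% (13.0% to 27.8%) at mesoderm and primitive streak genes to 33.3% (23.2% to 44.7%) at definitive endoderm genes, and all 14 intervals contained the share over all genes. The naive and neural lists were also recomputed under other settings. The naive interval excluded the share over all genes under 1 of them and the neural interval under several, given with each list. Of 196 genes in the lists 160 had a member.

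Naive pluripotency genes had 58 members among 264 distal regions, 22.0% (17.1% to 27.5%), with 11 narrowing and 6 widening regions. The orphan nuclear receptor gene Nr5a2 had 8 members of 33 distal regions and Tbx3, a T-box factor, 6 of 32 with 3 narrowing regions. Esrrb had 5 of 38 with 3 narrowing, and Prdm14, a repressor of differentiation, 5 of 13 with 0 narrowing. Tet2, which oxidises methylated cytosine, had 5 of 21, Nanog 3 of 8 and Fgf4 0 of 8. With only the 50% of intervals strongest by −log10 p kept in each list, the naive share was 15.1% (9.33% to 22.5%) against 27.9% over all genes, outside the interval.

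General pluripotency genes had 26 members of 103 distal regions (25.2%), with 7 of 26 at Zfp281, 6 of 33 at Sox2 and 2 of 5 at Pou5f1, which encodes OCT4. Formative and primed genes had 71 of 263, 27.0% (21.7% to 32.8%). Grhl2, a factor of epithelial enhancers, had 9 of 34 and Lef1, a WNT effector, 9 of 37. Otx2, a driver of the formative transition, had 7 of 16, and all 7 of its persistent distal regions were members. Dnmt3a and Sox4 also had 7 members each. Regions of stable width thus lay at genes of the naive and of the formative state.

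Neural ectoderm genes had 57 members of 276 distal regions, 20.7% (16.0% to 25.9%), led by Pax7 with 7 of 29, Meis2 with 6 of 26 and Sox1 with 6 of 19. With width limits of 0.8 and its reciprocal the neural share was 14.1% (10.24% to 18.807%), an interval that ended just below the 18.822% over all genes. With the lists cut to equal length the neural share was 21.2% (16.33% to 26.71%), against 26.89% over all genes. With only regions of 1 interval in each list it was 19.4% (14.84% to 24.65%), against 25.20%. Under the other settings the neural interval contained the share over all genes. Among mesoderm genes Eomes had 5 of 13, and among endoderm genes Foxa2, a pioneer factor, had 8 of 15. Of the signalling lists, WNT genes had 62 of 252 (24.6%), with 14 of 42 at Tcf7l2 and no narrowing or widening region there. FGF and ERK genes had 44 of 191 (23.0%), with 10 of 33 at Spred2, a feedback inhibitor, and 7 of 12 at Fos. LIF and STAT3 genes had 29 of 119 (24.4%), with 7 of 13 at Socs3, a feedback inhibitor of LIF signalling. Chromatin regulators had 63 of 247 (25.5%), led by Arid1b with 9 of 48, and housekeeping genes 30 of 93, 32.3% (22.9% to 42.7%), of which 11 lay at Ywhaz.

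Genes that mark cell types which the cultures could contain were within the same range. Extraembryonic endoderm genes had 27 members of 100 distal regions (27.0%), trophoblast genes 29 of 92 (31.5%) and fibroblast genes 19 of 78 (24.4%). In that order, 9 of 11, 9 of 10 and 7 of 10 genes of these lists had a member. Dab2, Gata3 and Col1a2, a marker from each list, had 3 of 6, 5 of 10 and 6 of 13 distal regions as members. Members were absent at Sox7, Ttr, Ascl2, Thy1, Twist1 and Vim, with 1, 2, 5, 8, 2 and 3 distal regions. At Tfap2c, a trophoblast and germline factor, 4 of 24 distal regions were members, 4 narrowed and 2 widened. An open region near a marker gene does not measure its expression, and the share of other cells was not tested.

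**Figure D4:**
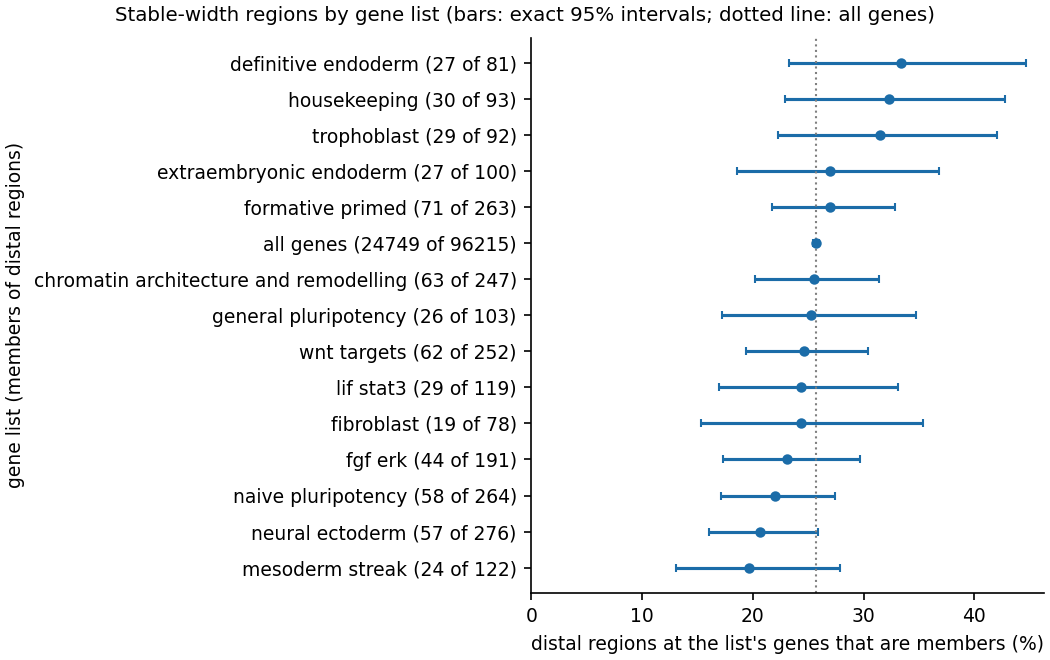
Share of distal regions that are stable-width members, at the genes of 14 lists and over all genes, with exact 95% intervals and the numbers behind each share. The dotted line marks 25.7% over all genes, which every interval contains.

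Annotated transcript starts were more frequent in members than in persistent distal regions that changed width. A start lay in 2219 of 24020 members on chromosomes with start windows, 9.24% (8.87% to 9.61%), against 8.19% over all persistent distal regions. The share was 2.80% (2.17% to 3.56%) in narrowing regions, 4.004% (3.34% to 4.76%) in widening ones and 1.554% (1.46% to 1.653%) in distal regions missing from at least 1 list. The choice used the outer ends of protein-coding genes only, and further starts within or between genes remained. Of the members with a start, 1519 held one of a protein-coding gene and 700 only one of a long non-coding RNA. In 139 of them starts lay on both strands. The share with a start was 6.04% with ends of genes of all kinds in place of protein-coding ones, and 14.8% with only the 50% strongest intervals of each list.

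Members with a start were wider and higher in each list, and these values moved with the result. Their median widths were 1061, 1084 and 1062 bp in the 3 lists, against 676, 695 and 674 bp in members without. Their median folds were 11.4, 11.8 and 12.6, against 9.62, 10.3 and 10.2. The classes were therefore also compared within 4 equal groups by width of the merged region. Among the widest, from 1081 bp on, 22.3% (21.3% to 23.4%) of members held a start, against 4.59% (3.27% to 6.25%) of narrowing and 9.64% (7.55% to 12.1%) of widening regions. Among the narrowest, up to 598 bp, the shares were 1.49%, 0.565% and 0.733% and their intervals overlapped. In the next group, from 598 to 809 bp, the members' 4.33% (3.83% to 4.88%) also overlapped the 2.59% (1.63% to 3.89%) of widening regions. Within 4 equal groups by fold at 48 h, the highest group had 12.2% (11.4% to 13.0%), 3.88% (2.14% to 6.42%) and 3.40% (2.03% to 5.32%). In the lowest fold group the members' 6.89% (6.24% to 7.58%) overlapped the 5.26% (3.88% to 6.96%) of widening regions. At 50 to 100 kb from a gene end, the members' share was 6.75% (5.88% to 7.71%), against 3.30% (1.66% to 5.83%) and 3.28% (1.80% to 5.44%).

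**Figure D5:**
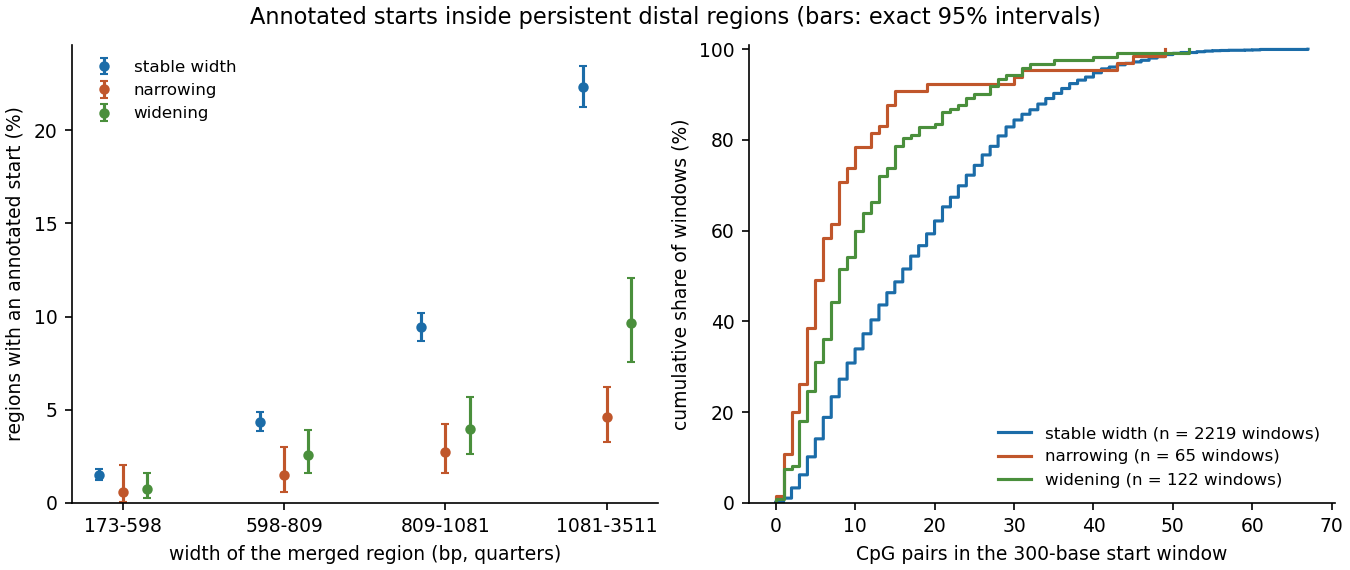
Left, share of regions that hold an annotated transcript start, with exact 95% intervals, by width of the merged region in 4 equal groups. Right, cumulative share of the 300-base start windows against their number of CpG. In the widest group 22.3% of stable-width regions hold a start, and their windows have a median of 16 CpG, against 6 in narrowing and 8 in widening regions.

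The starts inside members were rich in CpG. With 1 window taken per region, that of the start nearest the 2iL summit, the median was 16 CpG per 300 bases (middle 50% from 8 to 26) in 2219 members. It was 6 in 65 narrowing regions, 8 in 122 widening ones and 5 in 992 distal regions not in all 3 lists. Persistent regions at gene ends had a median of 22 and all 32851 RefSeq windows one of 7. At least 10 CpG were found in 1535 member windows (69.2%), in 26.2% of narrowing, 45.9% of widening and 43.5% of all windows. The Wapl and Lifr windows printed above, with 35 and 53 CpG, are of the CpG-dense kind, and the Esrrb window with 7 is not.

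The distance from the strongest summit to the start was similar in the 3 lists. It was taken to the start nearest the 2iL summit. In the 2iL list the strongest summit was at a median of −18 bp from the start (minus is upstream), at 48 h of −18 bp and at 96 h of −15 bp. It was within 150 bp of the start in 62.9%, 60.5% and 61.9% of the 2219 members. The same shares were 61.5%, 58.5% and 63.1% in narrowing and 45.9%, 47.5% and 49.2% in widening regions that held a start. The summit was −63, −76 and −60 bp from the Wapl start printed above and −4, −2 and 9 bp from that of Lifr. In Esrrb it was −3 bp in 2iL, then −53 and −51 bp.

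In all, 11 short motifs were searched for in these windows on both strands, and a match is a description and not a binding site. The CTCF core CCANNAGNNGGC was in 87 of 2219 member windows, 3.92% (3.15% to 4.81%), and in 2.43% of all windows. It was in 5 of 65 narrowing windows, 7.69% (2.54% to 17.05%), and in 12 of 122 widening ones, 9.84% (5.19% to 16.6%). The ETS motif CCGGAAGT was in 4.78% (3.93% to 5.75%) of member windows, in 0 of 65 narrowing, 1 of 122 widening and 3.89% of all windows. The cyclic AMP response element TGACGTCA was in 2.43% of member windows and 1.79% of all windows. Both of these motifs contain CpG. The AP-1 motif TGANTCA was in 5.90% of member windows and 7.81% of all. The SOX motif, ACAAAG or CATTGT, was in 24.1% and 28.6%, and the ZIC motif GCTGGG in 43.7% and 34.2%. The octamer ATGCAAAT, bound by OCT4, was in 1.80% of member and 1.74% of all windows. The KLF motif GGGTGTGG was in 3.65% and 3.56%, and the YY1 motif AAGATGGC in 2.75% of both. The ESRRB motif TCAAGGTCA was in 4 member windows, 0.180%, against 0.423% of all windows. The GRHL motif AACCGGTT was in 2, 0.0901%, against 0.146% of all windows. Matches of different motifs can overlap.

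Among non-coding starts, the member highest by fold held starts of 9330159M07Rik and, on the other strand, of Gm26611 (chr9:88858512-88859452). It was 933, 924 and 911 bp wide, with folds of 28.7, 28.3 and 31.1. A similar pair, 9430037G07Rik and Gm26567, lay 10.8 kb from Trim43a in a member of 859, 854 and 887 bp. The start of Kantr, an RNA from X, was in a member of 1033, 992 and 977 bp. Starts of 4930553P18Rik, AA465934, Gm26744, Gm36472, Gm34489, Gm14170 and BC002059 followed.

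Among protein-coding starts, 6720489N17Rik came first, in a member of 885, 927 and 944 bp. A start within Nedd9, a scaffold protein of focal adhesions, lay 49.0 kb from its gene end in a member of 945, 843 and 912 bp, with folds of 27.1, 26.2 and 26.8. Other such starts were of Cntrl, a centrosome protein, Dhx30, an RNA helicase, Cox7a2, a subunit of cytochrome c oxidase, and Snupn, an import receptor for small nuclear RNPs.

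Of the 22 genes of the chromatin list, 4 had a start in a member, namely Wapl, Stag1, Arid1a and Arid1b. Over all protein-coding starts 8.39% lay in members, a share by start and not by gene. No start was found in a member at the general pluripotency, mesoderm, definitive endoderm, FGF and ERK, housekeeping and fibroblast genes. Genes on chromosome 18, among them Gata6, Spry4, Egr1 and Pdgfrb of these lists, had no start window and could not be assessed. Whether the lists differ was not tested. The Wapl member was 1165, 1213 and 1199 bp wide with folds of 15.2, 16.3 and 18.3. Stag1, a cohesin subunit, had one of 1343, 1259 and 1330 bp, with 43 CpG in its window. Of the formative and primed genes Dnmt3a, a DNA methyltransferase, and Sall2 had a start in a member. Dnmt3a had 2 such members. One, of 3048, 2138 and 2695 bp, held 2 starts with 46 and 47 CpG, and the other was of 1171, 875 and 1068 bp.

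Starts of pluripotency and signalling genes were at Esrrb, Zfp57, Lifr and Axin2. The Esrrb member lay 60.9 kb from the gene end inside the gene (chr12:86421017-86422930) and was 1602, 1914 and 1814 bp wide with folds of 8.66, 9.99 and 12.3. The Lifr member was 1274, 1232 and 1223 bp wide with folds of 9.503, 6.34 and 9.49. Zfp57, which keeps imprints, had a member of 1167, 1127 and 1226 bp, and Axin2, a WNT target, one of 1643, 2211 and 2133 bp. Starts of genes of the neural ectoderm, extraembryonic endoderm and trophoblast lists were in members at Dab2, Dlx1, Lhx2, Gata2 and Gata3. The Gata3 member was low in every list, with folds of 3.59, 3.24 and 3.82, and that of Dab2 high, with 17.2, 19.4 and 18.2.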

How the data were processed

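ATAC-seq of 6 E14 samples in 3 groups was analysed from 3 deposited peak lists, 1 per group, each made by the authors from both samples. Per the submitters' processing notes the build was mm10 and the tools included BWA, Picard, SAMtools and bcl2fastq 2.20.0.422, with no roles given. The peak caller is not given in the sources used here. Lines of the deposited lists give an interval, a score per interval (not used), and per summit its position, a fold (linear ratio over background) and a −log10 p; the deposited −log10 q was not used. Each interval was represented by its strongest summit, that of highest −log10 p. No column of per-sample values was left out (0), and depth is unknown.

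Regions were merged and classed with Python 3.11.15, pandas 2.3.3 and SciPy 1.17.1, and the steps were tested on simulated data. Genes, start windows and microRNAs came from RefSeq tables of GRCm38.p6. All 206 list entries matched a gene. No genome was used, so the planned windows at summits were replaced by RefSeq start windows. Members and gene lists were chosen with earlier results of these data known. Named were the 12 genes with most members, up to 4 per list, the 10 regions highest by lowest percentile of fold, the 5 runs with most members, the 5 summits displaced most, the regions nearest each limit, the highest 10 non-coding starts, and the 5 highest and lowest shares at genes with at least 8 distal regions. Named outside these rules, after their values were seen, were the coding and list-gene starts, the microRNAs and the members outside the limits at 48 h. Nanog, Fgf4, Pou5f1, Dab2 and the cell type markers without a member were also named in this way. A few items that these rules select are not reported here.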

Additional observations from a re-analysis of the deposited data

How the results depend on the processing

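No paired analysis was possible because each list was made from both samples of its group, and leaving out a replicate could not be run for the same reason. Of 81 values recomputed under 9 alternatives, 49 stayed within the 95% interval of the value above or, for the number of members, within 1.5 times. The median summit displacement was 11 bp under all 9. The start share and the share over all genes were added after the data were seen. The values outside follow. The limits for the share at 48 h stayed at 0.6 and 1.6 where the limits for membership were changed. Narrower width limits for membership, 0.8 and its reciprocal, gave 59.8% members of persistent distal regions. Of these members 95.8% were within 0.6 and 1.6 at 48 h, with a start in 10.4%. Members were then 18.8% of distal regions over all genes and 14.1% at neural ectoderm genes. Limits of 0.5 and 2 gave 91.2%, 90.8%, 8.64% and, over all genes, 28.7%. Keeping the 50% strongest intervals gave 12006 members in place of 24749, 89.7% of persistent distal regions, 96.9% within the limits at 48 h, 57.8% inside a gene, a start in 14.8%, and 27.9% over all genes against 15.1% at naive genes. Lists cut to 78055 intervals gave 82.7% of persistent distal regions, 94.9% within the limits at 48 h, a start in 9.68% and 26.9% over all genes. Midpoints over 5 kb from a gene end gave 81.1%, 53.9% inside a gene, a start in 7.07% and 24.1% over all genes, and midpoints up to 50 kb gave 56.9% inside a gene and 26.7% over all genes. Ends of genes of all kinds gave 81.2% of persistent distal regions, a start in 6.04% and 24.0% over all genes. Regions with 1 interval in each list gave 82.3%, a start in 8.81% and 25.2% over all genes. Merging at an overlap of 150 bp moved no value outside. Fewer regions enter under stricter limits; other causes were not tested. Weak intervals depend on a depth and a threshold that are not known here.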
